A study of Homo sapiens with 4 samples.

Results

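HOX genes encode homeodomain transcription factors that tell cells of the embryo where they lie along the body axis. They sit in 4 clusters, HOXA to HOXD, and the order of the genes along each cluster follows the order of their use from head to tail, so that genes of low paralog number serve the hindbrain and pharynx while genes of high number serve the lower trunk, limbs and genital tract. Genes with the same number in different clusters are paralogs, copies of the same ancestral gene. In differentiated cells, Polycomb complexes keep the unused part of a cluster silent, whereas Trithorax complexes and retinoic acid receptors keep the used part active. TET1 is an enzyme that oxidises 5-methylcytosine in DNA.

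The 38 HOX genes described here were the rows of a gene-level RNA-Seq table of 62077 rows whose symbol was in a fixed list of HOX genes and whose locus lay on a main chromosome, 10 in HOXA, 10 in HOXB, 9 in HOXC and 9 in HOXD. The list was chosen by symbol, but it was selected on the knockdown FPKM values in so far as HOXD10 had been seen among the largest gains after TET1 knockdown. The knockdown values below are therefore a description and carry no test. The cells were FaDu, an established human epithelial line that came from a hypopharyngeal squamous carcinoma. Each of the 4 groups had 1 library: scrambled control in normoxia (N-scr), TET1-si in normoxia (N-si), scrambled control in hypoxia (H-scr) and TET1-si in hypoxia (H-si). For hypoxia the cells spent 19 h in 1% O2, the balance being 94% N2 and 5% CO2. The question of the design was which transcripts depend on TET1 under low oxygen. All 4 groups carried a lentiviral short hairpin vector with puromycin resistance, and the supplementary methods listed 1 hairpin sequence against TET1. The labels do not say whether the infected cells were pools or clones. The study's text calls them clones, while its methods describe use of the infected cells after a few days and no isolation of clones. No group had a replicate, so every difference below is between single libraries and none was given a p-value. Where 4 values follow each other, they are in the order N-scr, N-si, H-scr, H-si.

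Expression is in FPKM, fragments scaled by gene length and by library size, which allows levels of different genes to be compared. A change is the difference of log2(FPKM + 0.1) between libraries, and a gene was counted as changed when that difference reached 1, which is 2-fold. Counts and medians took genes with a mean of at least 1 FPKM over the 4 libraries, which 28 of the 38 HOX genes and 15057 genes in all met. Such a filter can admit a gene through the libraries in which it is high. Approximate reads were recovered from the steps between low values (depths of 22500000 to 24500000 reads), and the 95% intervals quoted are exact counting intervals of the log2 ratio without the pseudocount. They cover counting error only.

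The regions that carry the description are the 250 bases before the annotated start of HOXD9, HOXD10 and HOXD11, which were at least 2-fold higher after knockdown in both oxygen states, and of HOXA11, the gene that was lower in both. They are shown so that the composition of the start regions can be seen beside the values. All are GRCh37 (hg19) sequence, written 5′ to 3′ on the strand of the gene, with CG dinucleotides, the sites at which DNA methylation and its oxidation occur, in capitals. The HOXD windows were chr2:176971758-176972007 (HOXD11), chr2:176981256-176981505 (HOXD10) and chr2:176987197-176987446 (HOXD9), all on the plus strand. The HOXA11 window was chr7:27224852-27225101, on the minus strand.
HOXD11: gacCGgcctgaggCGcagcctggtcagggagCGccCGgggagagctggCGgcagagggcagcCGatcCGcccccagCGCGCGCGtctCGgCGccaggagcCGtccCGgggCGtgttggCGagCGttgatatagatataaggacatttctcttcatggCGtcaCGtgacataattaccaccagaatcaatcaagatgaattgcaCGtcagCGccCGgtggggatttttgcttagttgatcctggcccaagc
HOXD10: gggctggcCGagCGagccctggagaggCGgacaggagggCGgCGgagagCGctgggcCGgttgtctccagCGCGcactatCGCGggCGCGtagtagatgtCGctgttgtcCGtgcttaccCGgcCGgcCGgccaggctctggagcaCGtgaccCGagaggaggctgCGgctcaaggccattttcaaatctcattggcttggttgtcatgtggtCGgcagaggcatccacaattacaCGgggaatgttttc
HOXD9: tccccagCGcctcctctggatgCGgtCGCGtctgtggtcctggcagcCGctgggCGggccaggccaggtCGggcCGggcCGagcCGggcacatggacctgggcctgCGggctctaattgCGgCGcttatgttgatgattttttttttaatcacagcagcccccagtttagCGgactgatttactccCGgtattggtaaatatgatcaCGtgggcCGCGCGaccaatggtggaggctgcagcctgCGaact
HOXA11: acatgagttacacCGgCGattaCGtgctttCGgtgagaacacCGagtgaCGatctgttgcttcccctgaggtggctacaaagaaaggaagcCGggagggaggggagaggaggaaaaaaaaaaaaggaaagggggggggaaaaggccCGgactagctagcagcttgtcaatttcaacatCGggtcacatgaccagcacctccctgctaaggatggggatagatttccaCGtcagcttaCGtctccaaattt

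The windows of HOXD10 and HOXD11 each held 23 CG dinucleotides, that of HOXD9 held 20 and that of HOXA11 held 11. HOXB9 was also at least 2-fold higher after knockdown in both oxygen states, and its window, not printed here, held 15. The windows of HOXD8 and HOXD13, which stayed under 2-fold, held 28 and 21, so CG number did not follow the knockdown calls. The median was 14 over the windows of the 38 HOX genes, with a range of 3 to 40, and 18 over 20139 protein-coding genes. The windows of HOXD9, HOXD10 and HOXD11 overlapped no exon in GENCODE, although the gene loci of the deposited table extend over them, and the HOXA11 window held exons of the antisense transcript HOXA11-AS. Among 4 short words searched on both strands, TGATTNAT is a joint site of PBX and HOX proteins. It stood once each in the windows of HOXD11 and HOXB9, in 3 of the 38 HOX windows and in 1.71% of all windows. ACGTG, the core of the hypoxia-inducible factor site, was found in 22 of the 38 HOX windows against 20.4% of all windows. Those of HOXD9, HOXD10, HOXD11 and HOXA11 were among the 22, and that of HOXB9 was not. GCGTG, the other core, was found in 9 of the 38 against 40.2%. TTTATNG, a site of posterior HOX proteins, was found in 6 of the 38 against 7.53%. ACGTG and GCGTG each contain CG, and the palindrome CACGTG counts on both strands. These are matches of letters and were not tested as binding sites.

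TET1 itself stood at 0.129 FPKM with the scrambled control and 0.0493 with TET1-si in normoxia, and at 0.331 and 0.122 in hypoxia. It was thus lower in the TET1-si library of each oxygen state, but every value lay under the filter of 1 FPKM. TET1 was therefore not among the genes tested for a 2-fold change. No reads or counting interval are given for TET1, so the size of its decrease is uncertain. The hairpin against TET1 was directed at a 21-base target, with the bases that pair with the seed of the guide (guide bases 2 to 8) in capitals.
TET1 hairpin target: ccttgatagaatcACTCAGTt
The annotated TET1 transcript holds all 21 bases. Among the annotated transcripts of the 38 HOX genes the longest run shared with the target was 6 to 8 bases, and 0 of the 38 held the 7 capital letters. Only a single annotated transcript of each gene was searched, and no share over the transcripts of other genes is given. This is a match of letters that cannot show whether the hairpin acted on genes other than TET1, which was not tested.

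In scrambled control cells most of the HOX signal came from the A, B and C clusters. The sum over the 38 genes was 198 FPKM in normoxia and 181 in hypoxia, of which HOXD contributed 4.78% and 4.87%. HOXA9 and HOXA10 led in normoxia with 21.2 FPKM each, followed by HOXB7 with 18.2 and HOXC10 with 17.5. HOXB7 led in hypoxia with 25.9 FPKM, followed by HOXB3 with 19.4. After TET1-si the sum was 228 FPKM in normoxia and 258 in hypoxia, and the HOXD share was then 20.0% and 26.6%. HOXD10 ranked 20th of the 38 genes in N-scr and 21st in H-scr, but 2nd in N-si and 1st in H-si. Bulk RNA cannot tell more RNA per cell from more cells that carry it.

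**Figure D1:**
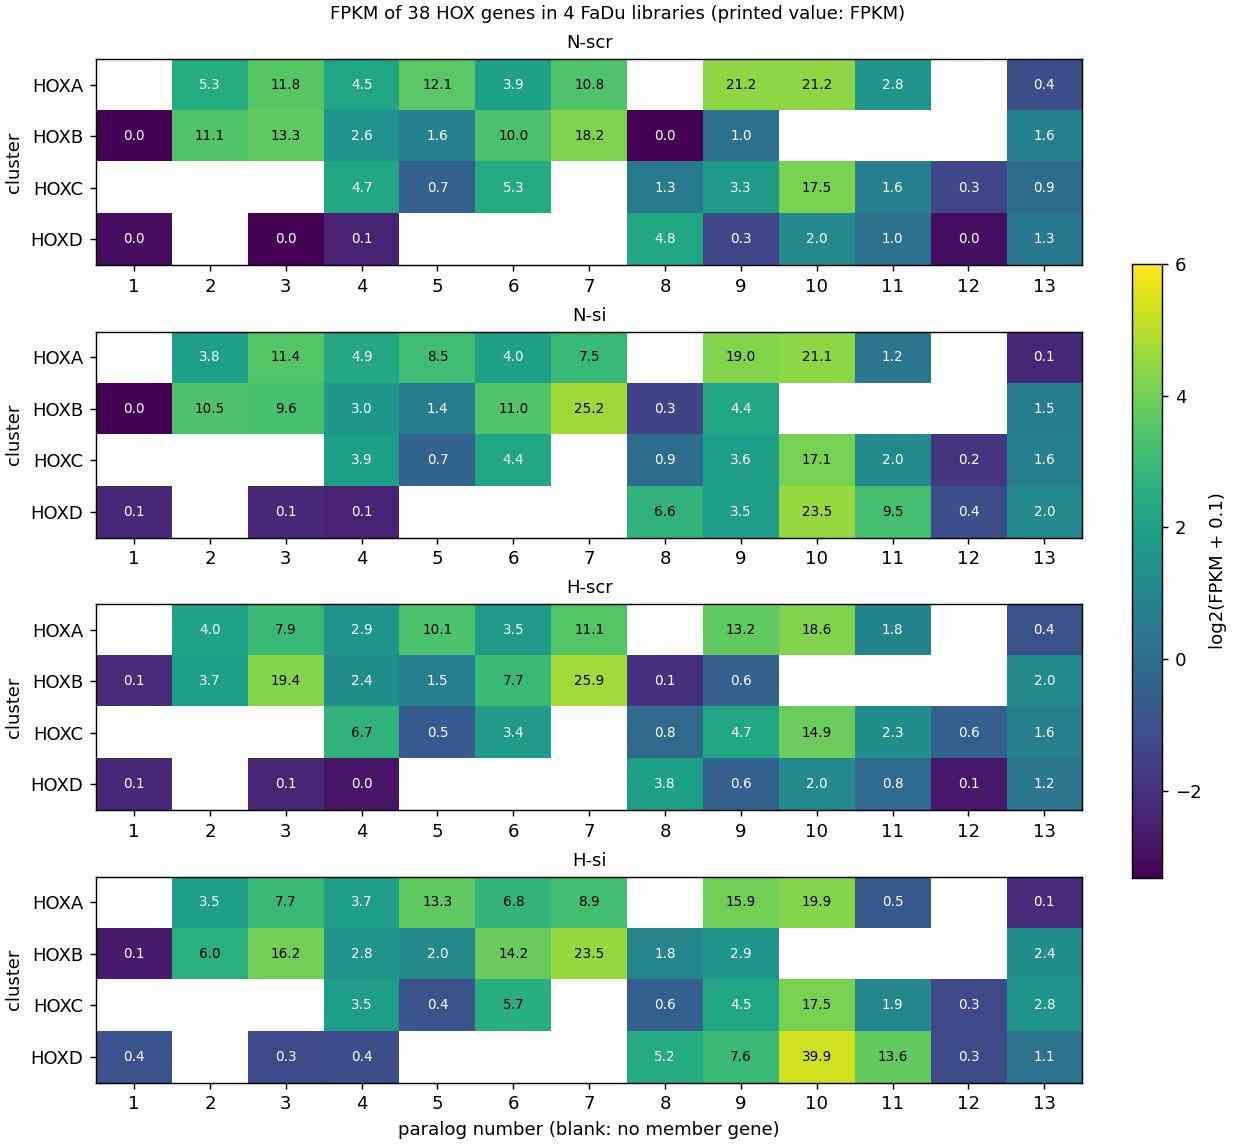
Level of each of the 38 HOX genes in the 4 libraries, with clusters in rows and paralog numbers in columns. The colour is log2(FPKM + 0.1) and the printed value is FPKM. The HOXD row differs most to the eye between the scrambled and the TET1-si libraries, with HOXD10 at 39.9 FPKM in H-si, while the HOXA9, HOXA10, HOXB7 and HOXC10 squares stay bright in all 4 libraries.

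After TET1 knockdown in normoxia, 4 of the 28 HOX genes were at least 2-fold higher (12.1% of all genes tested were) and 1 was at least 2-fold lower (5.56%). After knockdown in hypoxia the counts were again 4 higher (12.0%) and 1 lower (8.35%). The genes were the same in both oxygen states: HOXB9, HOXD9, HOXD10 and HOXD11 were higher in both (6.51% of all genes were) and HOXA11 was lower in both (3.06%). HOXD9, HOXD10 and HOXD11 reached a log2 change of 3, which is 8-fold, in both states, as did 0.345% of all genes, and 0 HOX genes were lower by as much (0.372%). Because the gene list was drawn up with these knockdown contrasts in view, nothing is read from the comparison with the other genes. The other 23 HOX genes stayed under 2-fold in both states. Without the filter HOXB8, HOXD3 and HOXD12 were also higher in both (7 of 38 genes) and HOXA13 was also lower (2 of 38), all 4 of them at a mean under 1 FPKM. The median change over the 28 was 0.01 in normoxia (-0.16 under median-of-ratios scaling) and 0.25 in hypoxia, beside 0.15 and 0.10 over all genes tested.

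HOXD10, a posterior HOX factor of limb patterning, stood at 2.01 FPKM with the scrambled control and 23.5 with TET1-si in normoxia, and at 1.98 and 39.9 in hypoxia. Both scrambled libraries were low and level with each other, and both TET1-si libraries were high. The change was 3.49 in normoxia (a ratio of 11.7, 95% interval of the log2 ratio 3.21 to 3.92) and 4.26 in hypoxia (a ratio of 20.1, 3.99 to 4.67). About 72, 905, 77 and 1409 reads lay behind these 4 levels. HOXD10 lies at chr2:176973518-176984670, and its locus shares 1205 bp with that of HOXD11, so reads there could have been given to either gene.

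HOXD11, the neighbour of HOXD10 and a factor of forearm and kidney development, showed the same order of libraries at a lower level. It stood at 1.02 FPKM with the scrambled control and 9.46 with TET1-si in normoxia, and at 0.846 and 13.6 in hypoxia. The change was 3.09 in normoxia (interval 2.70 to 3.75) and 3.85 in hypoxia (3.48 to 4.58). HOXD9, the neighbour on the other side, stood at 0.296 FPKM with the scrambled control and 3.54 with TET1-si in normoxia, and at 0.637 and 7.59 in hypoxia. Its change was 3.20 in normoxia (2.73 to 4.65), where only 11 reads lay behind the scrambled value, and 3.38 in hypoxia (2.99 to 4.21). The locus of HOXD9 overlaps neither HOXD10 nor HOXD11, but it does overlap the antisense transcript HOXD-AS2, which can share its reads. Over all 4 clusters 16 pairs of member loci overlap, with 18 members among them. The HOXD10 level was 1.96 to 2.94 times that of HOXD11 and 3.11 to 6.77 times that of HOXD9 across the 4 libraries. The sum of these 3 genes was 3.32 FPKM with the scrambled control and 36.5 with TET1-si in normoxia, and 3.47 and 61.1 in hypoxia, or 1.67%, 16.0%, 1.91% and 23.7% of all HOX FPKM.

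The other HOXD genes that met the filter, HOXD8 and HOXD13, stayed under 2-fold. HOXD8 stood at 4.75 FPKM with the scrambled control and 6.58 with TET1-si in normoxia, and at 3.85 and 5.17 in hypoxia, a ratio of 1.38 in normoxia and 1.34 in hypoxia, and both intervals lay above 0 (0.24 to 0.70 and 0.17 to 0.68). HOXD8 was thus the highest HOXD gene of the scrambled libraries and was overtaken by HOXD10 after knockdown. HOXD13, the gene of the digits at the far end of the cluster, stood at 1.27, 2.01, 1.22 and 1.09 FPKM in the order given, with a change of 0.62 in normoxia and -0.15 in hypoxia. HOXD12, between HOXD13 and HOXD11, was under the filter at 0.0273, 0.355, 0.0511 and 0.335 FPKM, or about 1, 20, 3 and 18 reads. HOXD1, HOXD3 and HOXD4, the anterior end of the cluster, stayed at or under 0.416 FPKM in all 4 libraries. At these low levels their changes were 0.77, 1.08 and -0.01 in normoxia and 1.28, 1.08 and 1.70 in hypoxia. No value of these genes had more than about 16 reads behind it. The median change of the 5 HOXD genes that met the filter was 3.09 in normoxia and 3.38 in hypoxia, but 1.08 and 1.52 over all 9 HOXD genes.

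**Figure D2:**
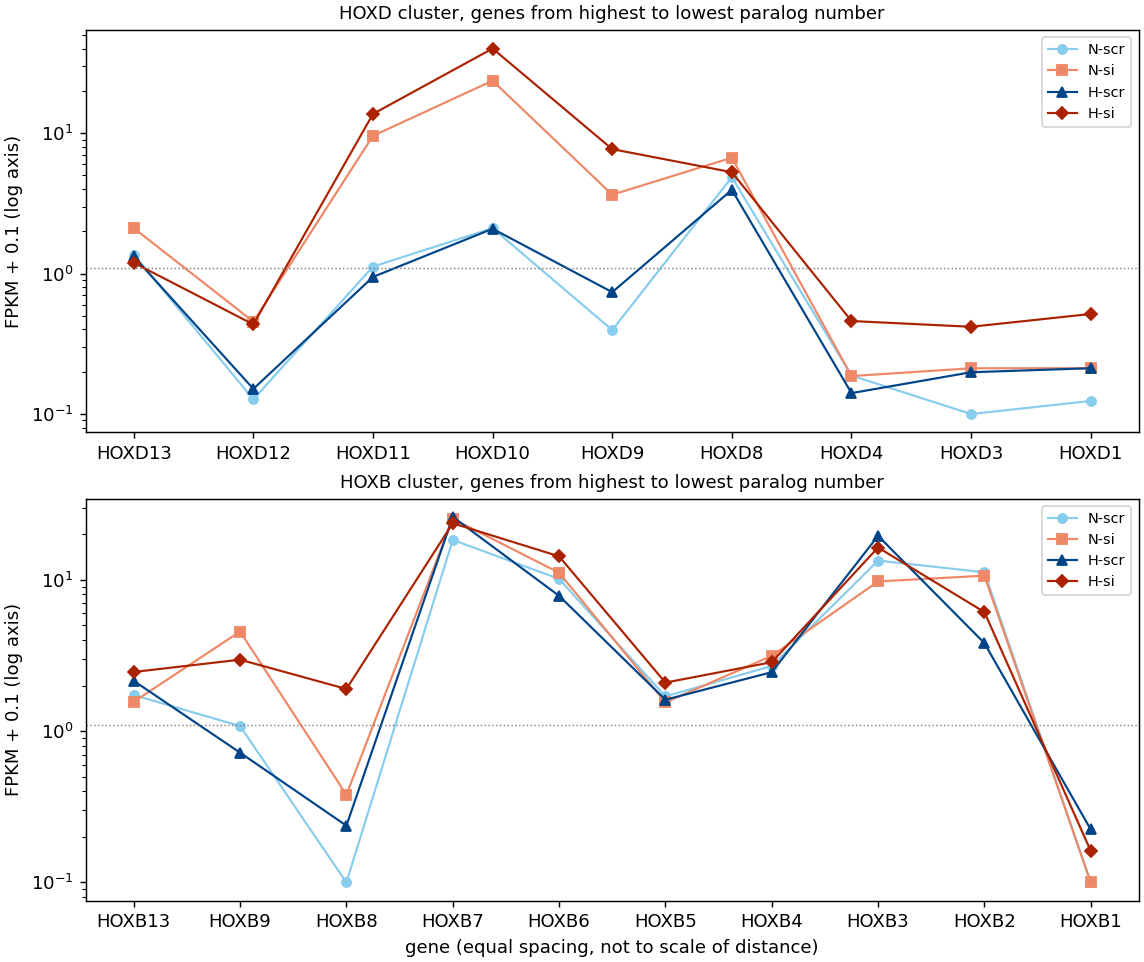
FPKM + 0.1 on a log axis for each gene of the HOXD cluster (top) and the HOXB cluster (bottom) in order of paralog number, with 1 line per library and a dotted line at 1 FPKM. In HOXD the TET1-si lines part from the scrambled lines from HOXD9 to HOXD12 and come near them again at HOXD8 and HOXD13. At HOXD1, HOXD3 and HOXD4, all under the dotted line, the H-si line stands above the others. In HOXB the TET1-si and scrambled lines part at HOXB8 and HOXB9 and run close together from HOXB7 to HOXB3.

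In the HOXB cluster the difference also lay toward the posterior end. HOXB9, a factor of the thoracic region, stood at 0.980 FPKM with the scrambled control and 4.45 with TET1-si in normoxia, and at 0.620 and 2.86 in hypoxia, so that both TET1-si libraries were above both scrambled libraries. The change was 2.07 in normoxia (interval 1.76 to 2.65) and 2.04 in hypoxia (1.68 to 2.78). HOXB8, its neighbour, was listed at 0 in N-scr, and its other values were 0.279 (N-si), 0.137 (H-scr) and 1.80 FPKM (H-si). About 7 and 79 reads lay behind the hypoxia values of HOXB8, and its mean was under the filter. HOXB13, the most posterior gene, which lies apart from the others and is best known from the prostate, stood at 1.63, 1.46, 2.05 and 2.36 FPKM in the order given, a change of -0.15 in normoxia and 0.19 in hypoxia. A transcript named RP11-357H14.19 in the table overlaps HOXB7, HOXB8 and HOXB9, and strand was not stated to be kept, so reads could be shared among them.

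HOXB7, the leading HOXB gene and a factor studied in several carcinomas, stood at 18.2, 25.2, 25.9 and 23.5 FPKM. N-scr was the low library and the other three were close. HOXB6, at 10.0, 11.0, 7.73 and 14.2 FPKM in the same order, and HOXB3, at 13.3, 9.64, 19.4 and 16.2, were both under 2-fold after knockdown, HOXB6 with changes of 0.14 in normoxia (-0.03 under median-of-ratios scaling) and 0.87 in hypoxia and HOXB3 with changes of -0.46 and -0.26. HOXB2, a hindbrain gene, stood at 11.1, 10.5, 3.71 and 6.01 FPKM. HOXB4, known from blood stem cells, stood at 2.59, 3.04, 2.35 and 2.75 FPKM, and HOXB5 at 1.60, 1.45, 1.51 and 1.99. Neither of these last genes came near 2-fold in any contrast. HOXB3 shares its locus with HOXB4, HOXB5 and HOXB6, so the split of reads among the 4 is uncertain.

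HOXA was the cluster with the highest sum in the scrambled libraries, 94.0 FPKM in normoxia and 73.5 in hypoxia, beside 81.3 and 80.3 with TET1-si. HOXA10, a factor of the uterus and of blood cells, was nearly level at 21.2, 21.1, 18.6 and 19.9 FPKM. HOXA9, known from leukaemia, stood at 21.2, 19.0, 13.2 and 15.9 FPKM in the same order. The knockdown intervals of HOXA10 lay within -0.13 and 0.22 in both oxygen states, so counting error leaves room for only small differences between those libraries.

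HOXA11 was the HOX gene that was lower after knockdown. HOXA11 acts in the limb and uterus, and it stood at 2.83 FPKM with the scrambled control and 1.16 with TET1-si in normoxia, and at 1.75 and 0.507 in hypoxia. Both TET1-si libraries were below both scrambled libraries, with a change of -1.21 in normoxia (interval -1.71 to -0.87) and -1.61 in hypoxia (-2.45 to -1.18). With a pseudocount of 1 in place of 0.1 the changes were -0.82 and -0.87, under 2-fold. HOXA13, the next gene, was under the filter at 0.369, 0.111, 0.403 and 0.117 FPKM. The antisense transcript HOXA11-AS, which can share reads with HOXA11, stood at 1.82, 1.70, 2.60 and 4.32 FPKM and so did not follow it.

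The anterior and central HOXA genes were under 2-fold after knockdown. HOXA5, a lung and breast gene, stood at 12.1, 8.50, 10.1 and 13.3 FPKM, with a negative change in normoxia (-0.50) and a positive one in hypoxia (0.39). HOXA7, which is expressed in keratinocytes, stood at 10.8, 7.51, 11.1 and 8.87 FPKM, lower in the TET1-si library of each state (-0.52 and -0.33). HOXA3, the gene of the pharyngeal arches that form thymus and parathyroid, stood at 11.8, 11.4, 7.94 and 7.75 FPKM. It differed by oxygen more than by knockdown. HOXA2, at 5.31, 3.76, 4.04 and 3.52 FPKM, and HOXA4, at 4.53, 4.87, 2.85 and 3.68, were lower still. HOXA6 stood at 3.89, 3.97, 3.50 and 6.82 FPKM, a knockdown change of 0.03 in normoxia and 0.94 in hypoxia, the latter 1.02 under TPM scaling.

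The HOXC sum was 35.5, 34.3, 35.5 and 37.3 FPKM. HOXC10 led the cluster, with 17.5, 17.1, 14.9 and 17.5 FPKM, and was nearly level. HOXC4 stood at 4.70, 3.87, 6.65 and 3.55 FPKM and HOXC6, a gene of the thorax and mammary gland, at 5.26, 4.37, 3.38 and 5.71. In hypoxia these overlapping genes differed after knockdown in opposite directions, HOXC4 by -0.89 and HOXC6 by 0.74. HOXC9 stood at 3.28, 3.64, 4.65 and 4.52 FPKM, and HOXC11 at 1.60, 2.03, 2.34 and 1.87. HOXC13, the factor of hair and nail keratins, stood at 0.900, 1.56, 1.55 and 2.79 FPKM and was higher in the TET1-si library of each state (0.73 and 0.81). HOXC8 was under the filter, at 1.34, 0.876, 0.824 and 0.618 FPKM.

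**Figure D3:**
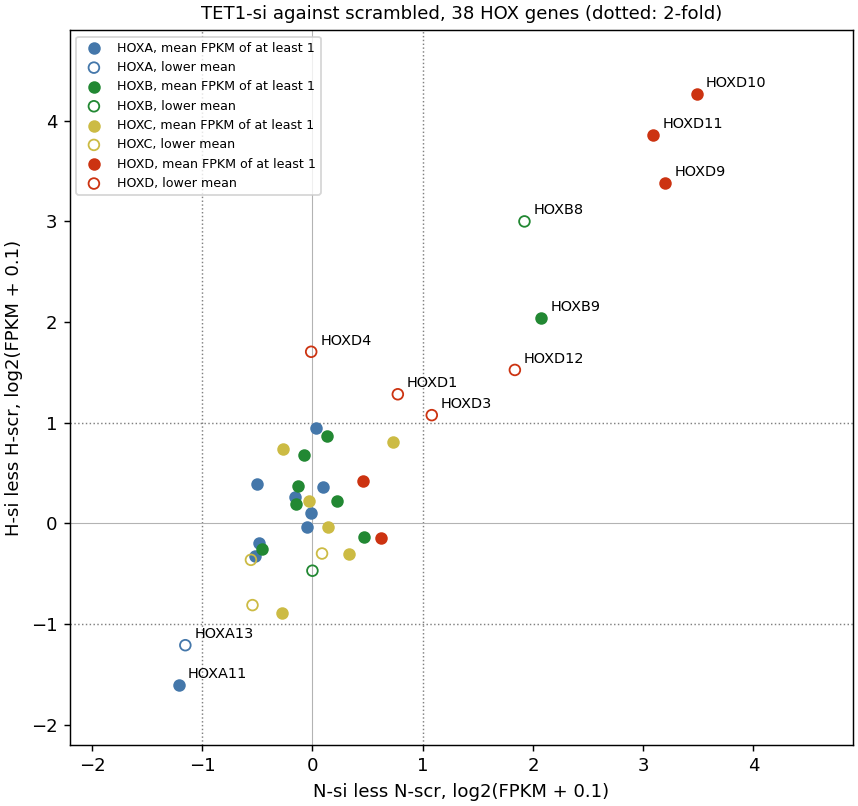
Knockdown change of the 38 HOX genes in normoxia (horizontal, N-si less N-scr) and in hypoxia (vertical, H-si less H-scr), both on the log2(FPKM + 0.1) scale, with filled points for the 28 genes of mean FPKM of at least 1 and dotted lines at 2-fold. HOXD9, HOXD10 and HOXD11 stand at the upper right, HOXB9 and the low gene HOXB8 follow, HOXA11 and the low gene HOXA13 stand at the lower left, and most others lie within the 2-fold square.

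In groups 9, 10 and 11 the paralogs differed in their knockdown values. In group 10, HOXA10 and HOXC10 changed by -0.01 and -0.03 in normoxia and by 0.10 and 0.23 in hypoxia, whereas HOXD10 changed by 3.49 and 4.26. In group 9, HOXA9 and HOXC9 stayed under 2-fold while HOXB9 and HOXD9 were higher. In group 11, HOXA11 was lower, HOXC11 was under 2-fold (0.33 and -0.31) and HOXD11 was higher. The sum of group 10 stood at 40.7, 61.7, 35.5 and 77.3 FPKM. The sum of group 4 was 11.9 FPKM in every library but H-si, where it was 10.3. Among the genes that met the filter, the 4 that were higher in both states thus had numbers 9 to 11, and so had the gene that was lower. Without the filter this range did not hold, since HOXB8, HOXD3 and HOXD12 were also higher and HOXA13 was also lower. Whether position or paralog number sets the response was not tested.

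Counting error alone left many of the smaller differences unresolved. In normoxia the interval of the knockdown ratio lay above 0 for 8 of the 28 genes, below 0 for 6 and on both sides of 0 for 14. In hypoxia it lay above 0 for 13, below 0 for 4 and on both sides of 0 for 11. The sign of the change was the same in both oxygen states for 16 of the 28, although for genes with changes of up to 0.14 the sign turned under another scaling. No interval or sign counts are given for all genes tested, so nothing is read from these counts about HOX genes as a group. Both TET1-si libraries stood above both scrambled libraries for 9 genes (28.8% of all genes tested did), namely HOXA6, HOXB4, HOXB6, HOXB9, HOXC13, HOXD8, HOXD9, HOXD10 and HOXD11. They stood below for 4 (15.6%), namely HOXA2, HOXA7, HOXA11 and HOXC4.

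**Figure D4:**
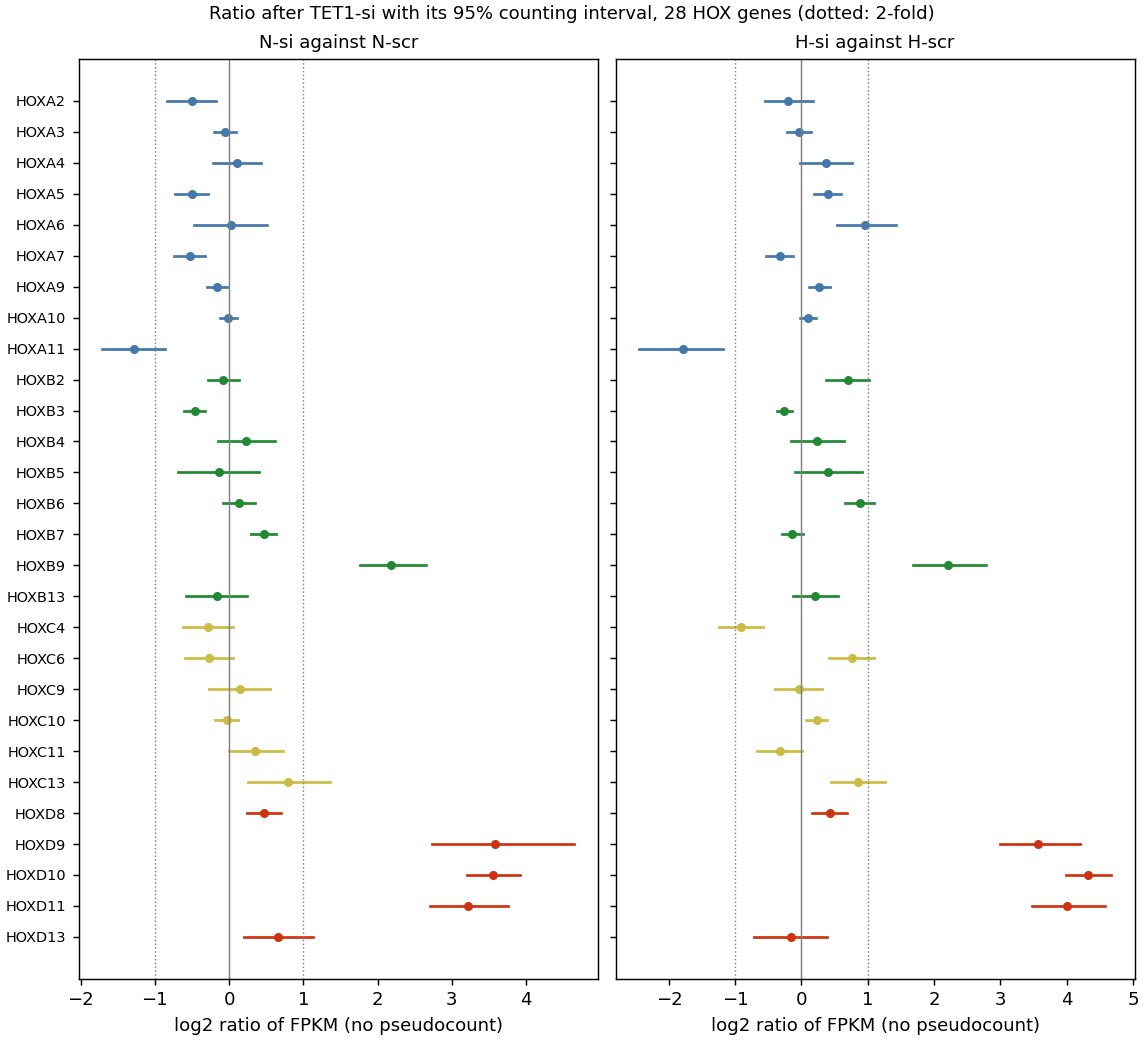
Log2 ratio of FPKM after TET1-si, without a pseudocount, for the 28 HOX genes of mean FPKM of at least 1, in normoxia (left) and hypoxia (right). Points are ratios, bars are 95% counting intervals from approximate reads, colours are the 4 clusters and dotted lines mark 2-fold. The bars of HOXB9, HOXD9, HOXD10 and HOXD11 lie wholly beyond the upper 2-fold line in both panels, and the bar of HOXA11 lies wholly beyond the lower line in the hypoxia panel.

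Hypoxia against normoxia gave few HOX genes a 2-fold change. In scrambled cells 0 of the 28 HOX genes were at least 2-fold higher (12.9% of all genes tested) and 1 was at least 2-fold lower (4.53%). That gene was HOXB2, with a change of -1.56 (interval -1.88 to -1.29). In TET1-si cells HOXD9 was higher (1 of 28, 12.5% of all genes) with a change of 1.08, and HOXA11 was lower (1 of 28, 8.66%) with a change of -1.06. None of the 28 passed 2-fold in both knockdown states, beside 6.73% of all genes higher and 2.34% lower, and 25 of the 28 were under 2-fold in both. The hypoxia calls of HOXD9 and HOXA11 lay close to the threshold and were not kept at a pseudocount of 1 (0.92 and -0.52).

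HOXD10 was level between the oxygen states in scrambled cells, with a change of -0.01 (interval -0.48 to 0.48), and was higher in hypoxia in TET1-si cells, by 0.76 (0.64 to 0.89). The values of HOXD11 were -0.24 (-1.02 to 0.47) and 0.52 (0.31 to 0.73). With and without knockdown HOXB3 was higher in hypoxia (0.54 and 0.74), as was HOXC13 (0.73 and 0.81), both under 2-fold. HOXA3 was lower in both (-0.56 and -0.55), as was HOXA4 (-0.65 and -0.39). The median hypoxia change of the 28 was -0.17 for the scrambled control and -0.02 for TET1-si, beside 0.05 and 0.03 over all genes. Taking the hypoxia change of the scrambled control from that of TET1-si gave values from -0.77 to 1.00 over the 28, with HOXC6 at the top and no counting interval computed. These contrasts share libraries with the knockdown contrasts, so they are not independent of them.

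**Figure D5:**
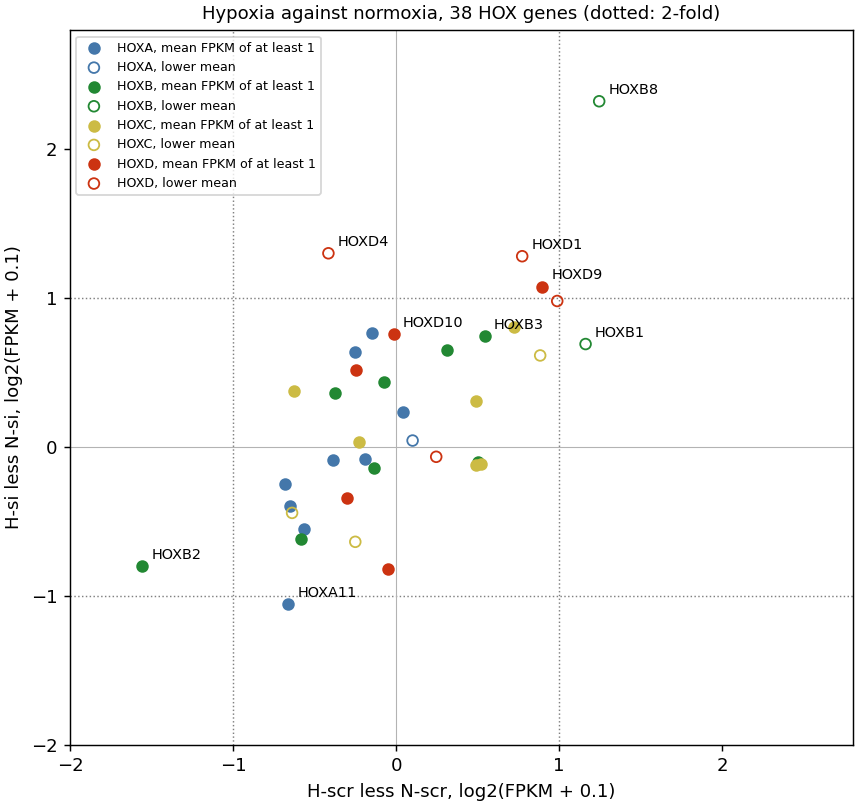
Hypoxia change of the 38 HOX genes in scrambled cells (horizontal, H-scr less N-scr) and in TET1-si cells (vertical, H-si less N-si) on the log2(FPKM + 0.1) scale, with filled points for the 28 genes of mean FPKM of at least 1 and dotted lines at 2-fold. HOXB2 lies beyond the left line, HOXD9 just above the upper line and HOXA11 just below the lower line, and the genes farthest to the upper right are open points of low level such as HOXB8.

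The study selected TET1-dependent genes with 3 inequalities: in hypoxia the scrambled library had to exceed 2 times the TET1-si library, the scrambled library had to be higher in hypoxia than in normoxia, and in normoxia TET1-si was not to exceed the scrambled control. None of the 28 HOX genes met them (3.84% of all genes tested did). Over all rows HOXA13 and HOXB1 met them, both at or under 0.403 FPKM, as did 2687 of 62077 rows in all. That is more than the number of genes the study reported, so the inequalities as applied here did not return the study's set. Turned round, the inequalities were met by HOXB9, HOXD10 and HOXD11 (3 of 28, 3.23% of all genes tested), whereas HOXD9 missed them because its level was higher in H-scr than in N-scr. The 8 HOX genes that stayed under 1 FPKM in every library were HOXA13, HOXB1, HOXC5, HOXC12, HOXD1, HOXD3, HOXD4 and HOXD12, none above 0.707 FPKM.

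HOX proteins bind DNA together with TALE homeodomain cofactors. Of 6 TALE genes tested, 0 were at least 2-fold higher after knockdown in both oxygen states (6.51% of all genes were) and 1 was lower (3.06%), PBX3, at 3.49, 1.54, 3.10 and 0.623 FPKM. MEIS1 stood at 2.26, 2.42, 4.53 and 3.32 FPKM and MEIS2 at 9.00, 10.2, 11.1 and 10.7, neither of them at 2-fold. The median change of the 6 was 0.13 in normoxia and 0.08 in hypoxia.

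Of 24 Polycomb genes tested, 0 were higher in both oxygen states (6.51% of all genes were) and 1 was lower (3.06%). The lower one was PHF19, a factor that guides the H3K27 methyltransferase to chromatin. PHF19 stood at 67.2, 26.8, 47.2 and 10.7 FPKM. EZH2, the methyltransferase itself, stood at 32.6, 31.5, 27.7 and 13.5 FPKM, a change of -0.05 in normoxia and -1.03 in hypoxia, and SUZ12, its partner, at 38.0, 46.3, 31.6 and 29.6. The median change of the list was 0.22 in normoxia and 0.24 in hypoxia, beside 0.15 and 0.10 over all genes. Of 13 Trithorax genes and H3K27 demethylases, 1 was higher in both states (6.51% of all genes were) and 0 were lower (3.06%). It was KDM6B, which removes the Polycomb mark, at 8.58, 25.4, 14.1 and 32.0 FPKM. The median of that list was 0.31 in normoxia and 0.12 in hypoxia. PHF19 and KDM6B were named because they passed the threshold in both states, so that choice fixed the order of their libraries. Their part in the HOXD values was not tested.

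Retinoic acid is a classical inducer of HOX genes. Of 14 genes of its supply and reception that were tested, 3 were higher after knockdown in both oxygen states (6.51% of all genes were) and 1 was lower (3.06%). The median change was 0.31 in normoxia and 0.42 in hypoxia. The higher ones were STRA6, the retinol uptake receptor, at 0.411, 3.09, 1.49 and 12.4 FPKM, ALDH1A2, which makes retinoic acid, at 0.316, 0.982, 1.93 and 5.95, and CRABP2, which carries it to the nucleus, at 6.76, 16.7, 15.9 and 34.0. The receptor RARB stood at 1.83, 3.36, 4.59 and 14.3 FPKM, with a knockdown change of 0.84 in normoxia and 1.62 in hypoxia. The part of these genes in the HOX values was not tested.

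Genes beside the clusters were compared to see how far the difference reached. Of 16 flanking genes tested, 0 were at least 2-fold higher after knockdown in both states (6.51% of all genes were) and 0 were lower (3.06%). Their median change was 0.17 in normoxia and 0.02 in hypoxia. Next to HOXD, MTX2 stood at 36.3, 56.9, 25.2 and 37.0 FPKM, and KIAA1715 at 19.9, 19.7, 10.1 and 20.1, while EVX2, the homeobox gene directly beyond HOXD13, was at or near 0 in all 4 libraries. Over the 15 other protein-coding genes tested within 2 Mb of HOXD the median knockdown change was 0.86 in normoxia and 0.66 in hypoxia, beside 0.24 and 0.19 over the 768 of chromosome 2. Of these 15, 3 were at least 2-fold higher in both states (6.51% of all genes tested were), CIR1, SCRN3 and TTC30A. These 3 were named after their values were seen and lie 1697, 1663 and 1423 kb from the cluster. TTC30A stood at 0.791, 2.39, 1.24 and 5.23 FPKM and CIR1 at 7.07, 22.5, 9.85 and 32.0. Within 2 Mb of HOXA, HOXB and HOXC no other protein-coding gene outside the clusters was at least 2-fold higher in both states. Of the 57 near HOXC, a region that holds the keratin genes, 6 were lower (3.06% of all genes tested were). The 3 remaining local medians were -0.42 and -0.45 for HOXA, 0.10 and -0.02 for HOXB and -0.43 and -0.48 for HOXC.

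As a check of the label, all 8 squamous epithelial markers were above 0 in every library, with KRT5 at 524 to 3993 FPKM and CDH1 at 179 to 399. Their summed level was 3180, 1050, 4670 and 2080 FPKM, and most of that sum was KRT5. Of the 8, 3 were at least 2-fold lower after knockdown in both states (3.06% of all genes), KRT5, KRT14 and KRT6A, and 0 were higher (6.51%). KRT14 stood at 42.1, 0.487, 99.9 and 1.41 FPKM, and KRT6A at 67.7, 0.394, 109 and 0.357. CDH1, EPCAM and PKP1 had positive changes under 2-fold, of 0.57 and 0.45, 0.41 and 0.68, and 0.76 and 0.95, while TP63 (-0.27 and -0.04) and DSG3 (-1.21 and -0.32) had negative ones. Of the markers of other lineages, COL1A2 and CD3E were listed at 0 in all 4 libraries, and DCN, PTPRC and VIM were at or under 0.406 FPKM. CDH5 and VWF, both endothelial, summed to 8.91, 22.2, 17.8 and 48.4 FPKM, and CDH5 was at least 2-fold higher after knockdown in both states. The 4 fibroblast markers, nearly all of it COL1A1, summed to 5.65, 14.1, 29.1 and 37.1 FPKM, and the 3 leukocyte markers, nearly all of it CD68, to 21.3, 26.3, 19.8 and 26.8. PECAM1 was not analysed here. The part of these marker differences in the HOX values was not tested, and with 1 library per group a difference between cultures cannot be told apart from one due to the knockdown.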

How the data were processed

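RNA was measured in 4 FaDu libraries, 1 per group. Per the labels and the study's methods the authors made TruSeq mRNA libraries, sequenced 100 bp reads on a HiSeq 2000, ran TopHat and Cufflinks with Ensembl annotation on hg19 and deposited 1 table of FPKM values. Versions and strand are not given in the sources used here, and the labels call the reads single end, the methods paired end. 5hmC profiles were not used here. The members and gene lists were chosen with earlier results of these data known.

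From the deposited FPKM, changes were differences of log2(FPKM + 0.1) at a mean FPKM of at least 1, with 111 IDs on more than 1 row left out. Depth was recovered from 6348 genes of 1 exon, in which 96.8% to 97.3% of low values came out whole within 0.05. Approximate reads were FPKM times depth times the canonical transcript length (GENCODE v44lift37, 37 of 38 HOX genes matched by ID and HOXB7 by symbol) less 214 bp, and 95% intervals were Clopper-Pearson. The calling and depth steps were tested on simulated data. Every HOX gene reaching 1 FPKM in any library is named, and from each list the genes changed at least 2-fold the same way in both oxygen states plus at most 3 others. Some items that this rule names are not reported here. Python 3.11.15, pandas 2.3.3, scipy 1.17.1 and matplotlib 3.10.9 were used. Alternatives were other pseudocounts, scalings, filters, thresholds and transcript lengths.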

Additional observations from a re-analysis of the deposited data

How the results depend on the processing

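No paired analysis was possible because each group had 1 library, and leaving out a library was not possible for the same reason. HOXB9, HOXD9, HOXD10 and HOXD11 were at least 2-fold higher after knockdown in both oxygen states at pseudocounts of 0.01 and 1, under median-of-ratios, upper-quartile and TPM scaling, and at a 4-fold threshold. No HOX gene called at 2-fold changed its direction under these pseudocounts and scalings. Smaller changes did: of 112 changes (28 genes in 4 contrasts) the sign turned for 6 under median-of-ratios, 6 under upper-quartile and 12 under TPM scaling, all of them at most 0.14 in size. The HOX median after knockdown in normoxia went from 0.01 to -0.16 under median-of-ratios and to -0.11 under upper-quartile scaling, and the HOX median of hypoxia in TET1-si cells from -0.02 to 0.09 under upper-quartile and 0.11 under TPM scaling. The main counts were 4 higher and 1 lower for each knockdown contrast and for both states together, 0 higher and 1 lower for hypoxia with the scrambled control, and 1 and 1 with TET1-si. At a pseudocount of 1 the lower counts of both knockdown contrasts and of both states together were 0, as were the higher and lower counts of hypoxia in TET1-si cells, since HOXA11 and HOXD9 left the calls. Of the 15057 genes tested, 579 in normoxia and 996 in hypoxia were then lower after knockdown. In TET1-si cells 1289 of them were higher and 1063 lower in hypoxia. At a pseudocount of 0.01, and again under TPM scaling, 1 HOX gene (HOXD9) was higher in hypoxia in scrambled cells (2041 and 2336 of the 15057 genes). Under TPM scaling 5 were higher after knockdown in hypoxia (2068 of the 15057 genes), HOXA6 being the fifth at 1.02. Under TPM and under upper-quartile scaling 0 were lower in hypoxia in TET1-si cells (1054 and 1080 of the 15057 genes). Under median-of-ratios scaling 2 were lower after knockdown in hypoxia (1524 of the 15057 genes) and 1 met the 3 inequalities of the study. Without a filter 7 were higher and 2 lower after knockdown in normoxia (3699 and 2299 of 61845 genes). In hypoxia 9 were higher and 2 lower (4226 and 3083), and in both states 7 and 2, for which no count over all genes is given. In hypoxia against normoxia 2 were higher with the scrambled control (4517 of all genes) and 4 with TET1-si (4803), and 2 met the inequalities. At a mean FPKM of at least 5 only HOXD10 and HOXD11 remained of the knockdown calls (2 higher and 0 lower in each state and in both), and 0 higher and 0 lower remained for hypoxia in TET1-si cells. At a 1.5-fold threshold 9 were higher and 2 lower after knockdown in hypoxia (3660 and 2527 of the 15057 genes). In hypoxia with the scrambled control 2 were higher and 5 lower (3492 and 2069), and with TET1-si 7 were higher and 4 lower (3574 and 2866). At a 4-fold threshold every lower count was 0, and 0 were higher for hypoxia in TET1-si cells. Of the 15057 genes, 272 were 4-fold lower after knockdown in normoxia and 359 in hypoxia. For hypoxia against normoxia 124 were lower with the scrambled control, and 248 lower and 426 higher with TET1-si. The median-of-ratios scaling moved the median knockdown change of all genes from 0.15 to -0.0043 in normoxia and from 0.10 to -0.01 in hypoxia, and the split of all genes from 1828 higher and 837 lower to 1421 and 1115, and from 1807 and 1258 to 1478 and 1524. HOX changes of that size are therefore within the choice of scaling. With the longest transcript in place of the canonical one, 1 knockdown interval that had held 0 (HOXC6 in normoxia) no longer did. Reads limit the low genes: 11 reads lay behind the lowest value used in an interval of the 28 genes.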

Other observations

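Noncoding transcripts of the clusters were also listed in the table. Of 18 long noncoding RNAs of the clusters found there, 10 met the filter. After knockdown 0 were at least 2-fold higher in both oxygen states (6.51% of all genes were) and 0 were lower (3.06%). Their median change was -0.22 in normoxia and 0.0034 in hypoxia, beside 0.15 and 0.10 over all genes. Outside that list, and named after their values were seen, 2 further transcripts of the HOXB cluster met the filter and were at least 2-fold higher in both states, RP11-357H14.20, at 0.204, 5.87, 0.471 and 4.05 FPKM in the order N-scr, N-si, H-scr, H-si, and RP11-357H14.19, which spans HOXB7 to HOXB9, at 0.397, 2.93, 0.249 and 2.30. Some transcripts below the filter, also named after their values were seen, were higher in both TET1-si libraries than in both scrambled ones. HOXD-AS2, which starts beside HOXD9 on the other strand, stood at 0.0554, 1.24, 0.104 and 1.70 FPKM. HOXB-AS4, beyond HOXB9, was listed at 0 in both scrambled libraries and at 1.27 and 1.64 FPKM in the TET1-si libraries. CTD-2377D24.6, between HOXB9 and HOXB13, stood at 0.231, 0.797, 0.0845 and 1.82 FPKM. These transcripts were picked because they were higher in the TET1-si libraries, so their likeness to HOXB9 and HOXD9 followed from the choice. Strand was not stated to be kept, and GENCODE v44lift37 gives the identifier of RP11-357H14.19 to HOXB7, so shared reads cannot be told apart from separate transcripts.

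Of the other noncoding RNAs, HOTAIRM1 was at least 2-fold higher in hypoxia with and without the knockdown. HOTAIRM1, at the anterior end of HOXA, stood at 47.7, 51.6, 116 and 131 FPKM, a hypoxia change of 1.29 with the scrambled control and 1.34 with TET1-si. HOTAIR, in HOXC, stood at 1.24, 1.09, 2.42 and 1.49 FPKM. HOXB-AS3 stood at 10.3, 4.74, 8.20 and 15.5 FPKM, with a knockdown change of -1.10 in normoxia and 0.92 in hypoxia, and HOXD-AS1 at 1.49, 3.90, 2.82 and 5.34, with changes of 1.33 and 0.90. All 7 microRNA hairpin loci within the clusters (symbols beginning with MIR) were listed at 0 in every library, and a longer row named hsa-mir-10a at 0.0184 to 0.0754 FPKM, which for such short RNA in an mRNA library is no measure of the microRNA. Of the ParaHox and caudal genes, relatives of the HOX genes outside the clusters, 0 of 6 met the filter, and PDX1 was the highest at 0.266, 1.28, 0.178 and 0.582 FPKM.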
